A study of Mus musculus with 24 samples.

Results

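Hepatoblastoma (HB) of mouse liver was compared with hepatocellular carcinoma (HCC), which the contrast as given calls neighbouring. The comparison used the 12 arrays titled BDCA_HB or BDCA_HCC, 6 of each, out of 24 arrays in the series. HCC replicates 3 and 4 differed from each other far less than other replicates did and were averaged as 1 sample. This left 11 tumour samples, 6 HB and 5 HCC. Both groups were frozen liver tumours of B6C3F1 mice. The titles carry the label BDCA, which is not spelled out, whereas the protocol text of every sample describes a bioassay of Ginkgo biloba extract, given to males and females by corn-oil gavage at 0, 200, 600 or 2000 mg/kg, 5 days a week for 2 years. The labels do not reconcile these, so the agent given to the tumour-bearing mice is not settled here. Dose, sex and animal are not labelled per sample, and whether a group's arrays stem from different mice is not stated. The p-values therefore reflect array-to-array spread that may be technical. Which HB and HCC arrays share a mouse, if any, is not stated either, and the groups were fitted as unpaired. The remaining arrays, non-tumour liver titled BDCA_Normal and normal liver of vehicle controls titled Vehicle_Normal (6 each), are quoted as a level of reference. They also entered the fit, of 23 samples, so each SE and p-value of a gene draws on the spread of all 4 groups. Total RNA was amplified from 10 ng and read on arrays of short probes, where several probes for a transcript form a probe set.

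Hepatoblastoma is a liver tumour whose cells resemble the embryonic liver cell, the hepatoblast, whereas hepatocellular carcinoma is made of cells that resemble hepatocytes. In mice it usually arises within or next to a hepatocellular tumour. Wnt signalling stabilises β-catenin, which enters the nucleus with TCF/LEF factors and switches on target genes, many of which code for inhibitors of the same pathway. In the adult liver the pathway is active in hepatocytes around the central vein, while factors such as HNF1, HNF4α and C/EBPα maintain the genes of plasma proteins, urea synthesis and bile acids.

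The values were array intensities on a linear scale, and differences are given as HB minus HCC in log2(intensity + 16) with the standard error (SE) of the fit. A gene was called at a Benjamini-Hochberg adjusted p below 0.05 in limma. Genes were tested where the 6th highest of the 24 values exceeded 66.3, the 40th percentile of all values, and a median below it is called dim. Where a group is dim, the size of a log2 difference depends on the pseudocount of 16. Intensities are given as the lowest, median and highest of the 6 arrays of a group.

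Of the 4 marker genes given for the contrast, Hoxd9, Gbx2 and Apcs did not overlap between the tumours, and Afp did. The 4 were chosen with earlier results of these data known, so their values and p-values describe the contrast and do not test it. Hoxd9, a homeodomain transcription factor of body patterning, read 3843, 4370 and 5263 in HB and 2.15, 5.26 and 68.4 in HCC. Gbx2, a homeobox gene of the developing hindbrain, read 3509, 4770 and 10950 in HB and 4.40, 27.1 and 49.3 in HCC. Every HB array lay far above every HCC array for both genes, and HCC, non-tumour liver (medians 3.38 and 26.1) and vehicle liver (6.06 and 14.8) were all dim. The difference was 7.35 ± 0.31 for Hoxd9, or 163.6-fold (adjusted p = 3.61e-15), and 7.15 ± 0.33 for Gbx2 (adjusted p = 1.46e-14). Both genes passed the filter on dim probe sets only through their HB arrays. Apcs, which encodes the plasma protein serum amyloid P, read 1.15, 7.92 and 1625 in HB and 9131, 14730 and 19960 in HCC. The difference was -7.72 ± 0.77 (adjusted p = 6.23e-09). In the limma fit of HB and HCC alone, the adjusted p was 1.72e-08 for Hoxd9, 1.72e-08 for Gbx2 and 3.4e-05 for Apcs. Afp, the fetal serum protein alpha-fetoprotein and a marker used for both tumours, was lower in HB, at 289.2, 953 and 9107 against 1762, 22110 and 39270, and the groups overlapped (-3.32 ± 0.70, adjusted p = 0.000313). The lower Afp held for the brightest of its 4 probe sets, while the probe sets ranged from -3.74 to 0.07.

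**Figure D1:**
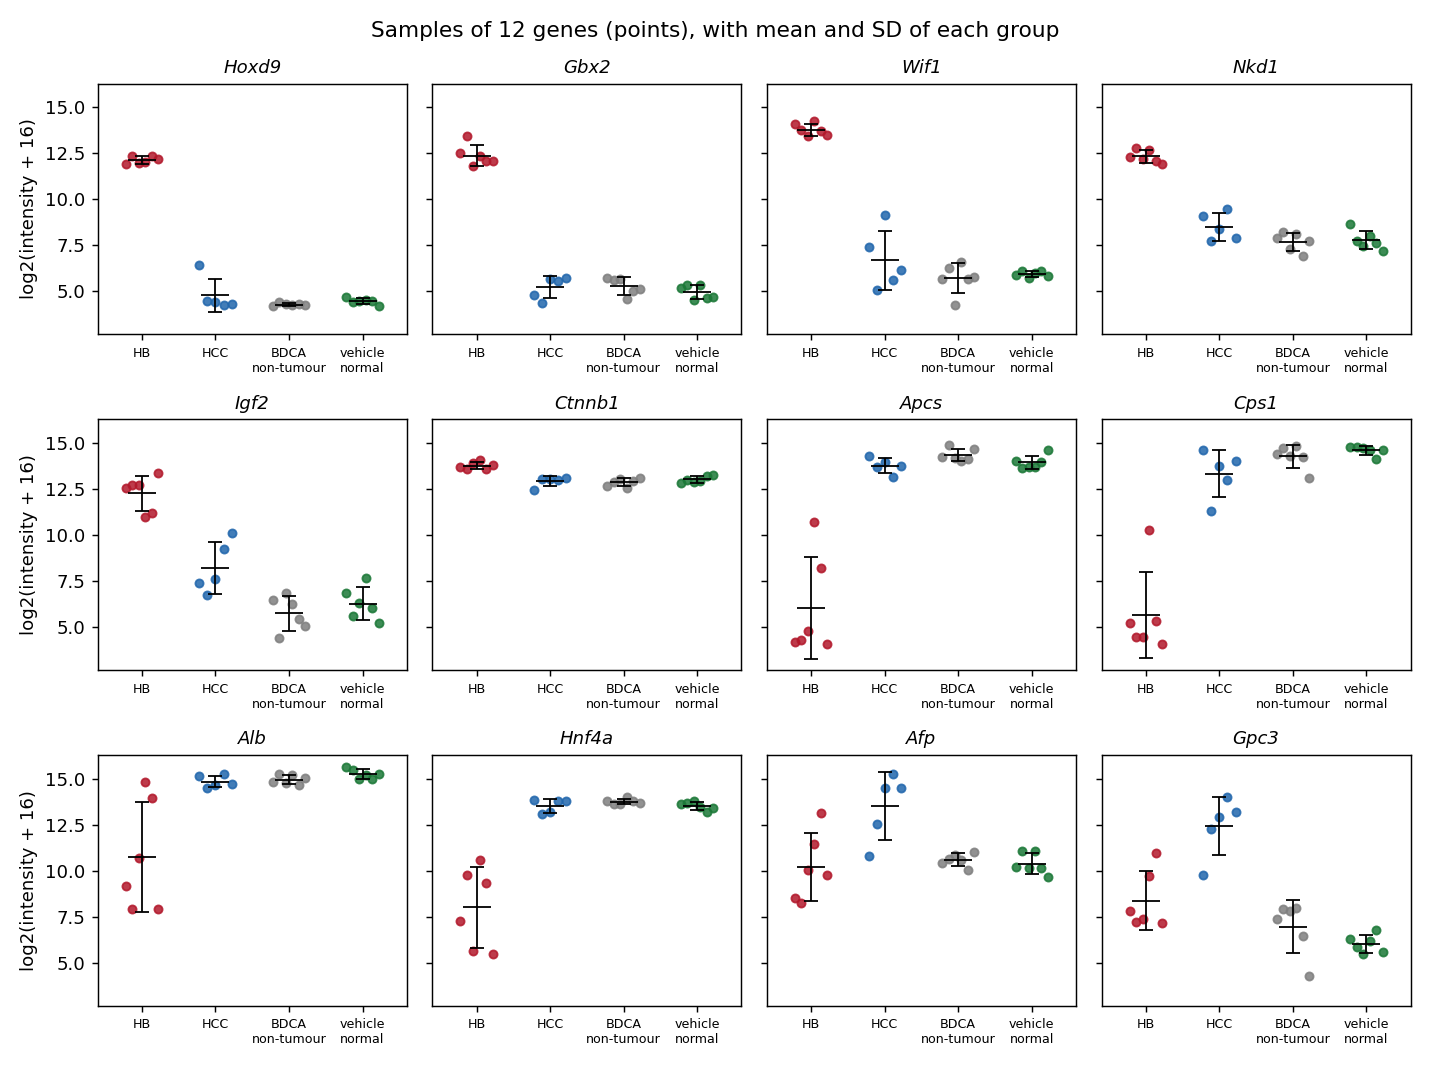
Intensity of 12 genes on a log2(intensity + 16) axis. Each point is a sample (HB n = 6, HCC n = 5 with replicates 3 and 4 averaged, non-tumour and vehicle liver n = 6 each), the long bar is the mean and the whiskers are the SD. HB points stand together and above the other groups for Hoxd9, Gbx2, Wif1 and Nkd1, and spread widely for Apcs, Cps1, Alb and Hnf4a; for Alb 2 HB samples lie at or near the HCC points.

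The labels were set against markers of liver cells. In HCC the hepatocyte markers were bright in every array: Alb (albumin) read at least 23000, Ttr at least 23280, Apoa1 at least 21060 and Hnf4a at least 8564. In HB the same markers were lower and uneven. Alb read 28760 in HB replicate 4, 15780 in replicate 5 and 228.7 to 1630 in replicates 1, 2, 3 and 6, so replicate 4 lay inside the HCC range. HB replicates 4 and 5 also stood apart over lists of hepatocyte genes: the mean level of 13 plasma carrier proteins was 11.61 and 11.78 there, 6.05 to 7.44 in the other HB samples and 13.91 to 14.59 in HCC (log2 scale). Dlk1, a surface protein of hepatoblasts, was dim in both tumours (HB median 58.5, HCC median 62.2) and did not pass the test (0.35 ± 0.45, adjusted p = 0.536).

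Signal was spread differently over the arrays of the 2 tumours. All arrays had the same trimmed mean as deposited, yet the log2 median intensity of an array was 7.36 ± 0.17 in HB and 6.70 ± 0.29 in HCC (SD, n = 6 and 5), with no overlap (two-sided exact permutation test, p = 0.00216, the smallest this design allows, and 0.00649 adjusted over 3 array measures). The ratios of 3' to 5' signal of Gapdh and Actb, which rise as RNA degrades, were lower in HB by 0.33 and 0.27 on the log2 scale without passing the same test (adjusted p = 0.173 and 0.127), though both passed without HCC replicate 2 (adjusted p = 0.0214 for Gapdh) and Actb also without HCC replicate 5 (adjusted p = 0.0286). The scaled median absolute deviation between HCC replicates 3 and 4 was 0.18 over 6989 bright probe sets, against 0.40 to 0.85 in the other 29 pairs within the tumour groups.

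In all, 7126 of the 14086 tested genes differed, which is 50.6% of them. Of these, 4077 (28.9% of tested genes) were higher and 3049 (21.6%) lower in HB, and 5465 (38.8%) differed by at least 2-fold. HB and HCC samples did not overlap in 4030 genes, or 28.6%. The median log2 difference over all tested genes was 0.19. The balance of directions followed the scaling: 57.2% of called genes were higher in HB as deposited, 46.7% after quantile normalization and 34.4% after centring each array on its median, where the median of all genes became -0.06 and -0.26. Differences of at least 32-fold were called in 252 genes lower in HB (1.79%) and 88 genes higher (0.625%). With so large a share of genes called, the counts over lists below are read against 28.9% for higher and 21.6% for lower genes. Those shares hold for the main setting only. Over all genes, quantile normalization gave 3308 higher and 3781 lower of 14086, and median centring 2405 and 4596. With no filter there were 4318 higher and 3086 lower of 18193. List counts under these settings are to be read against those numbers.

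**Figure D2:**
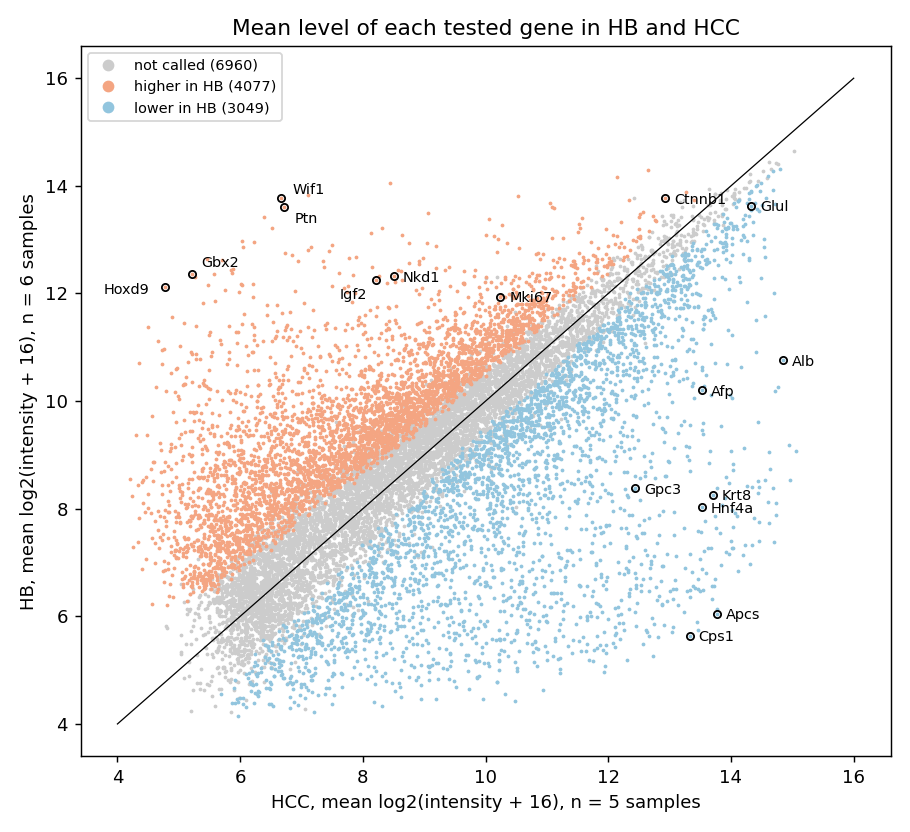
Mean log2(intensity + 16) of each of the 14086 tested genes in HB (n = 6) against HCC (n = 5), with the line of equality. Called genes above the line (4077) and below it (3049) are coloured, and labelled genes are named in the text; the genes far below the line, such as Apcs and Cps1, reach HCC levels above 13 with HB levels near 6.

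Hoxd9 led the 10 largest rises in HB, taken over called genes with no overlap of the groups. After it came Slc14a1, a urea transporter (7.18 ± 0.51), Gbx2, and Wif1, a secreted protein that binds and blocks Wnt ligands (7.11 ± 0.49). Wif1 read 10850, 13520 and 19480 in HB and 17.3, 104 and 555 in HCC. Hoxd8 (7.02 ± 0.42), Fxyd6, a regulator of the sodium pump (6.92 ± 0.43), Ptn, the heparin-binding growth factor pleiotrophin (6.89 ± 0.51), and Egfl6, a secreted protein with EGF-like repeats (6.87 ± 0.46), followed. Speer4cos (7.03) and Speer8-ps1 (6.94) were among them too; they belong to a family of close copies, which these probe sets may not separate. The 10 were picked for size among called genes. Their adjusted p in limma, at most 5.82e-10 in each, therefore describes them and is no further test. Egfl6, like Hoxd9 and Gbx2, passed the filter only through its HB arrays. For Ptn the 3 probe sets ranged from 3.64 to 7.69. The HCC medians of these 10 genes ran from 2.19 to 131.8. With a pseudocount of 1 or 64 Hoxd9 stood at 8.97 or 5.85 and Wif1 at 7.49 or 6.42.

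The largest falls were all in genes of hepatocyte function. Cps1, the first enzyme of the urea cycle, read 0.72, 13.9 and 1234 in HB and 2482, 13680 and 24950 in HCC (-7.68 ± 0.73, adjusted p = 2.64e-09). Mat1a, which makes S-adenosylmethionine in adult liver, read 1.83, 47 and 306 in HB and 6326, 10420 and 28310 in HCC (-7.55 ± 0.57). Besides these and Apcs, the 10 were the plasma proteins Hrg (-7.64), Hpx, which binds haem (-7.34), Plg, plasminogen (-7.32), and Fgb, a fibrinogen chain (-7.31), and the cytochromes Cyp2d9 (-7.71), Cyp3a25 (-7.46) and Cyp2c70 (-7.37). Their adjusted p values in the limma fit of all 4 groups lay between 1.23e-11 and 1.07e-07. In the limma fit of HB and HCC alone they were weaker, from 4.46e-07 for Cyp2d9 to 0.000151 for Fgb. The HB samples spread widely in these genes, with an SD of 2.33 for Cps1 and 3.13 for Fgb on the log2 scale. HB replicate 4 or 5 held the highest HB value in each of these 10 genes (replicate 4 in Apcs and Cps1, at 1625 and 1234), and without both replicates Apcs stood at -9.42 and Cps1 at -8.77.

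**Figure D3:**
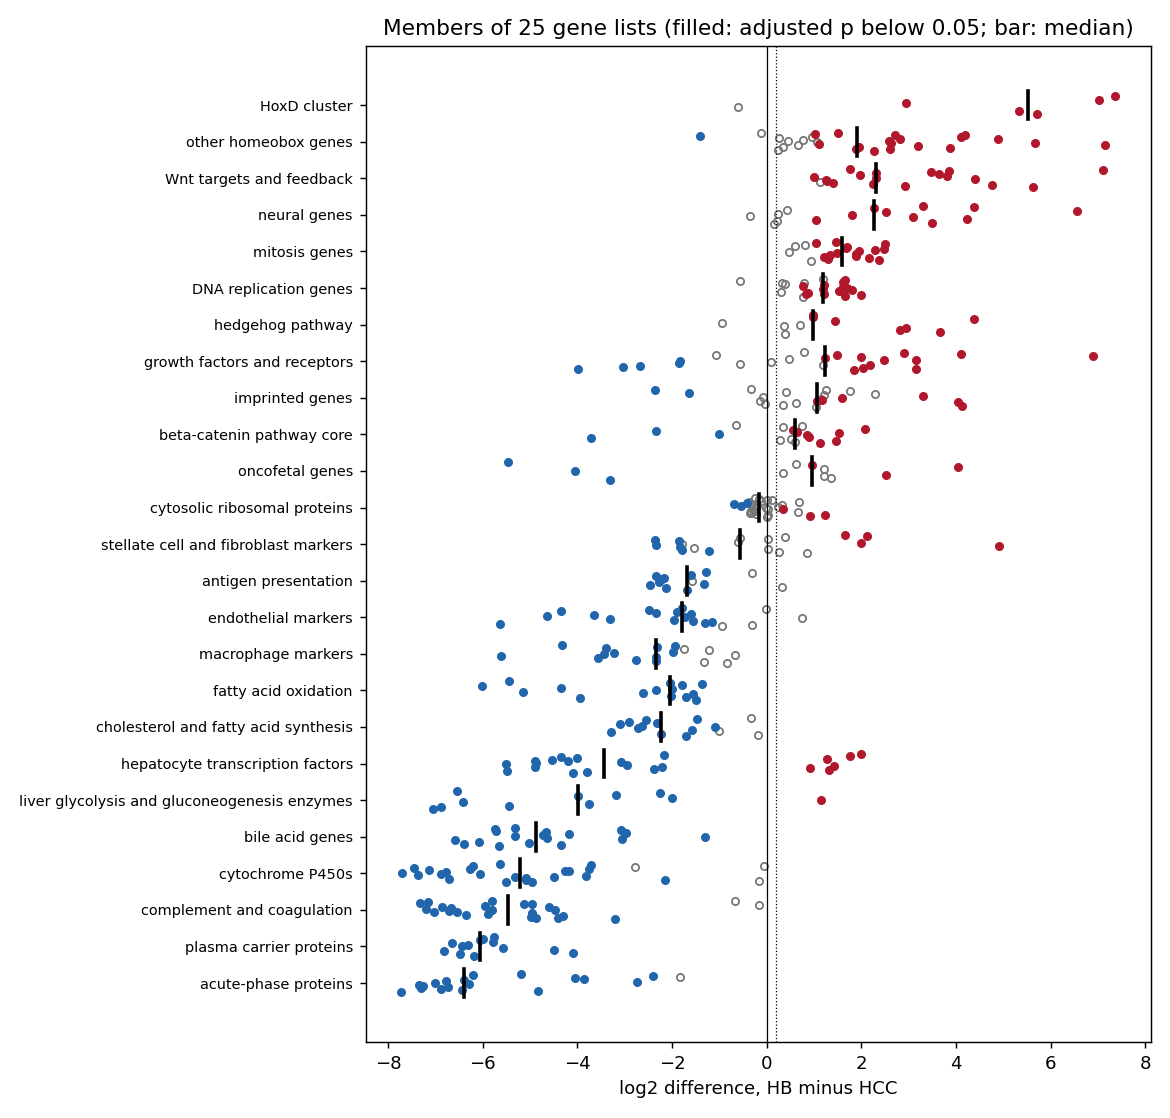
Log2 difference, HB minus HCC, of the tested members of 25 gene lists. Filled points passed the test (red higher in HB, blue lower), open points did not, thick bars are list medians and the dotted line is the median of all tested genes, 0.19; the HoxD list has its median at 5.52 and the acute-phase list at -6.40.

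Homeobox genes were a leading group. Among the HoxD genes, which lie side by side on chromosome 2, 5 of the 6 tested were higher in HB and none lower, with a median of 5.52. Hoxd10 read 1116, 2031 and 3218 in HB and 3.38, 29.3 and 56 in HCC (5.70 ± 0.36), and Hoxd8 read 4438, 4979 and 5944 against 4.20, 23.1 and 115.9. All 5 had groups that did not overlap, against 28.6% of all tested genes. A gene that passes the filter through its 6 HB arrays alone cannot overlap, and 5 of the 6 tested HoxD genes were dim in HCC. Their lack of overlap is therefore no separate support. Hoxd12, the remaining tested member, stood at -0.60 ± 0.49 (adjusted p = 0.317). A gene that is bright in HB alone can pass the filter on dim probe sets through HB, so the count was repeated with no filter: 7 of 8 HoxD genes on the array were then higher and none lower. The other Hox clusters did not share this rise. Without the filter 3 of their 25 genes on the array were higher and 3 lower, beside 4318 and 3086 of all 18193 genes. Both counts were below the share of all genes. With the filter 7 were tested, 4 of them lower and none higher. Of these 7, 5 were dim in HB and none in HCC, so members could pass the filter through groups other than HB. The 4 falls are therefore not read as a trait of these clusters. Hoxb4 (-1.53 ± 0.44), Hoxa5 (-1.30 ± 0.45) and Hoxa3 (-1.30 ± 0.45) led these falls, all at HCC medians of 128.4 to 541.8. Hoxb4 stood at 0.45 on another of its probe sets, Hoxa3 and Hoxa5 lost their calls on other probe sets, and the 4 calls became 2 without HCC replicate 1 and 2 without HCC replicates 3 and 4.

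Among homeobox genes outside the Hox clusters, 18 of 28 tested were higher and 1, Prrx1, lower (-1.41 ± 0.51), and with no filter 20 of 46 were higher and 1 lower. Without HCC replicate 2, or without HB replicates 4 and 5, none was lower. Irx5, an Iroquois factor, read 1255, 1576 and 4137 in HB and 3.08, 25.5 and 47.5 in HCC (5.67 ± 0.37, adjusted p = 4e-12). Msx2, a factor of limb, skull and tooth development, read 295.1, 682.8 and 1522 in HB and 2.55, 5.78 and 12.3 in HCC (4.90 ± 0.35). Neither gene overlapped between the tumours. Of 15 Sox factors 5 were higher and 3 lower (5 under the other scalings), near the share of all genes, with Sox11 (3.48 ± 0.39), Sox12 (2.52 ± 0.50) and Sox4 (2.23 ± 0.30), all of the SoxC group, leading the rises. The 6 probe sets of Sox11 ranged from 3.48 to 5.82.

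Targets and feedback inhibitors of Wnt signalling were higher in HB in 18 of 19 tested genes and lower in none, with a median of 2.31. The share of all tested genes higher in HB was 28.9%. In 15 of the 19 the groups did not overlap, against 28.6% of all tested genes. The number higher was 16 after quantile normalization, 15 after median centring and 15 without HB replicates 4 and 5. None was lower in any of these settings. Nkd1, which binds Dishevelled and damps the pathway, read 3848, 4812 and 6954 in HB and 195.5, 313.6 and 688.7 in HCC (3.82 ± 0.32, adjusted p = 2.6e-10). Tnfrsf19, a receptor known as a β-catenin target, read 4276, 5481 and 7051 in HB and 112.1, 329.1 and 751 in HCC (3.86 ± 0.38). Both tumours were clearly apart for these genes, and the HCC medians lay above those of vehicle liver (188.6 for Nkd1 and 153.9 for Tnfrsf19). The HCC arrays overlapped those of vehicle liver, which read up to 381.4 for Nkd1 and 295.8 for Tnfrsf19. The medians of non-tumour liver, 205.9 and 198.2, also lay above those of vehicle liver. Axin2, the scaffold whose transcription is widely used as a readout of the pathway, read 7883, 8633 and 9511 in HB and 275.9, 1965 and 3466 in HCC (2.93 ± 0.47, adjusted p = 1.14e-05). Lef1, a nuclear partner of β-catenin, stood at 4.39 ± 0.64, Apcdd1, a membrane inhibitor, at 5.62 ± 0.56, and Notum, a secreted inhibitor, at 3.64 ± 0.42. The mean level of the list hardly varied over HB (10.85 to 11.40) and ran from 7.56 in HCC replicate 1 to 8.77 in HCC (log2 scale).

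Several well-known Wnt genes were less clear-cut. Lgr5, an R-spondin receptor, read 538.3, 1138 and 1715 in HB and 5.06, 397 and 1272 in HCC, with overlap. Its difference of 2.31 ± 0.94 (adjusted p = 0.0425) lost its call without any of HB replicates 1 to 5 or HCC replicates 1 or 6 (adjusted p up to 0.174, at 1.48 without HCC replicate 1). Myc stood at 1.00 ± 0.33 (adjusted p = 0.0144) and lost its call after median centring (0.55, adjusted p = 0.165) and without HB replicates 4 and 5 (0.75, adjusted p = 0.0863). Glul, glutamine synthetase, a pericentral enzyme under Wnt control, was bright in both tumours, at 8764, 11550 and 25340 in HB and 13820, 21960 and 32570 in HCC. Its difference of -0.70 ± 0.29 (adjusted p = 0.0472) became -0.18 after quantile normalization (adjusted p = 0.557), and leaving out single replicates of either tumour gave adjusted p values up to 0.146. Dkk1, a secreted inhibitor, was the list member that did not pass.

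Components of the pathway itself shifted less. Of 17 tested core genes 8 were higher, 3 lower and 6 not called, with a median of 0.60, beside 28.9% and 21.6% of all tested genes. After median centring 5 were higher and 4 lower, and without HB replicates 4 and 5 the numbers were 7 and 4. Ctnnb1, which encodes β-catenin, read 12190, 13770 and 17000 in HB and 5528, 8436 and 8750 in HCC, a difference of 0.85 ± 0.15 without overlap (adjusted p = 5.21e-05) that became 0.40 after median centring (adjusted p = 0.0718) and 1.43 after quantile normalization (adjusted p = 4.4e-09). The 3 probe sets of Ctnnb1 ranged from 0.85 to 2.33. Bcl9, a co-activator of β-catenin, was higher (1.46 ± 0.27), and Lrp5, a Wnt co-receptor, lower (-2.35 ± 0.32). Cdh1, the cadherin that holds β-catenin at cell junctions, read 26.7, 182.6 and 601.8 in HB and 174.2, 3997 and 9118 in HCC (-3.71 ± 0.77, adjusted p = 0.000262).

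The promoter windows of 11296 of the 14086 tested genes were found in RefSeq (GRCm38.p6), each from 250 bases before to 50 after the start. The TCF/LEF motif was searched as CTTTGAT or CTTTGAA on both strands. It was in 8.77% of all 27025 windows, 6.38% of those of tested genes, 6.26% of those of genes at least 2-fold higher in HB and 7.33% of those at least 2-fold lower. In genes at least 32-fold different it was in 4.92% of windows of the higher (3 of 61) and 10.8% of the lower (21 of 194). Among the Wnt list 2 of 11 windows held it (those of Sp5 and Dkk1), and among HoxD 2 of 6 (those of Hoxd8 and Hoxd12). Hoxd8, which was higher in HB, and Hoxd12, which did not pass, thus share the letters. The windows of Hoxd8 and of Sp5, a direct target of TCF/LEF factors (3.48 ± 0.68 here), are shown because both genes were higher and both hold the motif, in capitals; Hoxd8 has 2 copies, the first at position -153 from the start, and Sp5 has 1 at -104.
Hoxd8, chr2:74704365-74704664, plus strand: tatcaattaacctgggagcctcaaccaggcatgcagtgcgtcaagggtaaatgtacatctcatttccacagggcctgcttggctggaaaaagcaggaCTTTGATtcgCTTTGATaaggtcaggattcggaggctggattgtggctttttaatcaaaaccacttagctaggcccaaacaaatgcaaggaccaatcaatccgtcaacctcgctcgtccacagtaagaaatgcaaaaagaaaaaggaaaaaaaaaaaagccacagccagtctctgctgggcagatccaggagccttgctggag
Sp5, chr2:70474673-70474972, plus strand: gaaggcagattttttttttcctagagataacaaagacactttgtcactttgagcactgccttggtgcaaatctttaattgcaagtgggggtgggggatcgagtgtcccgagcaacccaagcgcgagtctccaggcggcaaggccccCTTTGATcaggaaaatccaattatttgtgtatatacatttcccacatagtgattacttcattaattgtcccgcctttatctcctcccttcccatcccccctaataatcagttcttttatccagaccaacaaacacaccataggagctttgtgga

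Genes of neurons were higher in HB in 10 of 15 tested and lower in none, with a median of 2.27, beside 28.9% and 21.6% of all tested genes. With no filter 13 of 22 were higher and 1 lower, beside 4318 and 3086 of all 18193 genes. Prph, a neuronal intermediate filament, read 3720, 5522 and 9049 in HB and 6.85, 57.2 and 87.2 in HCC (6.56 ± 0.38, adjusted p = 4.99e-13). Its 4 probe sets ranged from 1.67 to 6.56. Gap43, a protein of growing axons (4.23 ± 0.54), and Uchl1, a deubiquitinase abundant in neurons (3.29 ± 0.44), were higher without overlap. These genes were dim in HCC, where 11 of the 15 medians lay below 66.3. Such genes can pass the filter through HB alone, and a lack of overlap is then no separate support.

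Of 23 growth factors and receptors 12 were higher and 5 lower in HB. Over all tested genes the shares were 28.9% and 21.6%, so the lower count was near the share of all genes. Ptn read 9025, 12600 and 18670 in HB and 27.5, 114.9 and 477.1 in HCC. Tgfb2, a TGF-β ligand, read 1692, 2615 and 3339 in HB and 49.9, 198.6 and 214.3 in HCC (4.11 ± 0.41, adjusted p = 7.2e-09). Every HB array was above every HCC array for both ligands, whose medians in vehicle liver were 61.8 and 47.1. Receptors of the EGF family were split: Erbb3 was lower (-3.04 ± 0.30), as was Egfr, at 21.2, 242.7 and 472.2 in HB and 2074, 2977 and 5783 in HCC (-3.98 ± 0.56), while Erbb2 was higher in the same list. For Egfr the 7 probe sets ranged from -3.98 to -0.24.

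Igf2, the fetal growth factor that is expressed from the paternal allele, read 2007, 6352 and 10710 in HB and 91.9, 178.3 and 1091 in HCC, where vehicle liver had a median of 56.1. The difference was 4.04 ± 0.57 (adjusted p = 2.09e-06) and the groups did not overlap. Of 15 tested genes of the insulin-like growth factor and growth hormone axis, 7 were lower, 2 higher and 6 not called. Ghr, the growth hormone receptor, stood at -2.92 ± 0.35, and Igf1, its main target in liver, read 234.6, 2049 and 6847 in HB and 2751, 10340 and 24400 in HCC (-2.52 ± 0.60). The other gene higher was Igfbp5, an IGF-binding protein (4.14 ± 0.53). Imprinted genes as a list had 6 of 21 higher and 2 lower, about the share of all genes, 3 and 3 after median centring and 9 and 2 without HB replicates 4 and 5, with Cdkn1c, a maternally expressed cell cycle inhibitor, at 4.13 ± 0.49 and Slc38a4, an amino acid transporter, at -2.36 ± 0.31.

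Oncofetal genes did not move as a group: 3 of 11 were higher and 3 lower, near the 28.9% and 21.6% of all tested genes. Gpc3, a glypican of fetal liver and hepatocellular tumours, read 129.2, 180.5 and 1967 in HB and 871.1, 7667 and 16210 in HCC (-4.06 ± 0.72, adjusted p = 4.68e-05), with overlap. Its median in non-tumour liver was 178.4, close to that of HB. Afp likewise had an HB median of 953 beside 1558 in non-tumour liver. For both genes the highest HB value was in replicate 5 (1967 for Gpc3 and 9107 for Afp) and the lowest HCC value in replicate 1 (871.1 and 1762). Tff3, a secreted trefoil peptide, was lower too (-5.47 ± 0.80), with 292.5 in HB replicate 4 and 8.70 to 17.1 in the other HB arrays.

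Cell-cycle genes were higher in HB. Of 20 mitosis genes 16 were higher and none lower (median 1.58), and of 21 DNA replication genes 14 were higher and none lower (median 1.19). These counts depended on the scaling, at 11 and 12 after quantile normalization and 8 and 9 (with 1 lower) after median centring, and the mitosis count on single samples, at 10 without HB replicate 3, 10 without HB replicate 6 and 9 without HCC replicate 6. Kif11, a spindle motor, read 171.2, 565.2 and 887.2 in HB and 28.1, 64 and 158.3 in HCC (2.48 ± 0.42), and Bub1 (2.17 ± 0.43) and Foxm1 (2.29 ± 0.50) also did not overlap. Among replication genes, Pcna, the sliding clamp, read 1942, 2938 and 3499 in HB and 878.9, 1252 and 1714 in HCC (1.22 ± 0.24, and 0.77 after median centring), and Mcm3 stood at 1.80 ± 0.34. Mki67 read 967.5, 5418 and 6618 in HB and 591.9, 1494 and 2760 in HCC, with HB replicate 4 the low HB sample, and its call (1.69 ± 0.60, adjusted p = 0.0214) was lost after median centring and without HCC replicate 2 or 6 (adjusted p = 0.0983, 0.0630 and 0.0633). The mean level of the mitosis list was 7.51 in HB replicate 4, 8.57 to 9.90 in the other HB samples and 7.13 to 7.89 in HCC.

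Counts for other signalling pathways in the main setting stand against 28.9% of all tested genes higher and 21.6% lower. Of 11 tested hedgehog genes 7 were higher and none lower in HB, at 6 and 5 (with 1 lower) under the 2 other scalings and with 1 lower without HCC replicate 6. Shh, the ligand, read 116.6, 694.5 and 1121 in HB and 1.40, 14.1 and 21.2 in HCC (4.39 ± 0.44), Cdon, a co-receptor, stood at 3.66 ± 0.40, and Ptch1, receptor and target, at 1.45 ± 0.20, a call lost on another of its probe sets. Of 16 Notch pathway genes 6 were higher and 1 lower (4 and 2 after median centring, 6 and 3 after quantile normalization), with the target Hey2 at 225.1, 1265 and 2830 in HB and 19.6, 28.1 and 45.9 in HCC (4.55 ± 0.48). Of 15 genes of MAPK output 6 were higher and 1 lower, or 3 lower under either other scaling. Etv5, an ETS factor induced by FGF signalling, stood at 4.41 ± 0.41 and Spry2, a feedback inhibitor, at 3.02 ± 0.45, while the immediate-early gene Egr1 was lower (-2.41 ± 0.42), and 2 MAPK genes were lower without HB replicate 5, HCC replicate 1 or HCC replicate 2, and without HB replicates 4 and 5. Of 13 p53 targets 2 were higher, below the share of all genes, Phlda3 (2.16 ± 0.36) and Zmat3 (1.26 ± 0.44), and none lower. The balance turned with the scaling, as did that of all tested genes. It was 1 higher and 2 lower after quantile normalization and 1 higher and 3 lower after median centring. Zmat3 lost its call under both (adjusted p = 0.114 and 0.120). Left-out samples moved the counts too, since 1 was higher without HCC replicate 1 and 3 without HCC replicate 2, and 1 was lower without HB replicate 1, HB replicate 4, HCC replicate 2 or HCC replicates 3 and 4.

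Transcription factors of the hepatocyte split. Of 22 tested, 16 were lower and 6 higher, beside 21.6% and 28.9% of all tested genes, and the median was -3.43. Cebpa, which encodes C/EBPα, read 73.6, 150.6 and 233.9 in HB and 1684, 2528 and 4521 in HCC (-4.09 ± 0.28, adjusted p = 9.6e-12), and Cebpb stood at -3.79 ± 0.27. Nr1i3, the xenobiotic receptor CAR, read 38.4, 60.7 and 81.4 in HB and 1131, 1903 and 4331 in HCC (-4.89 ± 0.29). These 3 genes were low in every HB array, replicates 4 and 5 included. Hnf4a read 28.7, 389.4 and 1543 in HB and 8564, 11890 and 14510 in HCC (-5.50 ± 0.61). The factors that were higher were Prox1, which is present from the hepatoblast stage on (7539, 7943 and 9850 against 1978, 2432 and 2999, 1.76 ± 0.17), Tbx3, Gata6, Onecut1, Foxa2 and Esr1, and 3 of the 22 were higher after median centring.

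Secreted plasma proteins were lower in HB throughout. All 13 tested plasma carriers were lower (median -6.05), as were 18 of 19 acute-phase proteins (-6.40) and 24 of 26 complement and coagulation genes (-5.46), and none of these genes was higher. The shares stand against 21.6% of all tested genes. Under the 2 other scalings the 3 lists had 13, 18 and 24 to 25 lower genes, and without HB replicates 4 and 5 they had the counts of the full set with medians of -7.89, -7.43 and -6.12. Apoh, a lipid-binding glycoprotein, read 4.39, 55.7 and 768.3 in HB and 10250, 11540 and 14310 in HCC (-6.64 ± 0.59), and Fetub, a protease inhibitor, stood at -5.78 ± 0.48. Crp, C-reactive protein, read 5.27, 59.9 and 422.3 in HB and 4258, 7631 and 12180 in HCC (-6.44 ± 0.51). In the clotting cascade F12 read 3.10, 12.3 and 113.7 in HB and 2853, 4073 and 4537 in HCC (-6.54 ± 0.39, adjusted p = 1.09e-12). Masp1, a protease of the lectin pathway of complement (-5.95 ± 0.30, with 5 probe sets from -5.95 to -1.71), and C8g, a chain of the membrane attack complex (-4.99 ± 0.29), were also below HCC in every HB sample. For these bulk tumours, fewer cells of a type and less RNA per cell cannot be told apart.

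Promoter windows were searched for motifs of 2 hepatocyte factors on both strands. The full HNF1 motif was in 0 of the 11296 windows of tested genes, so its first 10 letters were counted. For HNF1 the letters GTTAAT, then any base, then ATT were in 0.437% of all windows, 0.354% of those of tested genes, 0.163% of those of genes at least 2-fold higher in HB, 1.55% of those at least 2-fold lower and 5.15% of those at least 32-fold lower (10 of 194). The HNF4 letters CAAAGTCCA were in 0.46% of windows of tested genes, 0.203% of the higher, 1.23% of the lower and 3.61% (7 of 194) of the genes at least 32-fold lower. In the windows of the plasma carrier, acute-phase and complement and coagulation lists, the HNF4 letters were in 0 of 10, 0 of 16 and 0 of 20 and the HNF1 letters in 1, 1 and 2. These are counts of letters, not of bound sites. Afp, with the letters at -105, and F13b, a subunit of clotting factor XIII (-7.03), with them on the other strand at -55, are shown as examples, with the matching letters in capitals.
Afp, chr5:90490464-90490763, plus strand: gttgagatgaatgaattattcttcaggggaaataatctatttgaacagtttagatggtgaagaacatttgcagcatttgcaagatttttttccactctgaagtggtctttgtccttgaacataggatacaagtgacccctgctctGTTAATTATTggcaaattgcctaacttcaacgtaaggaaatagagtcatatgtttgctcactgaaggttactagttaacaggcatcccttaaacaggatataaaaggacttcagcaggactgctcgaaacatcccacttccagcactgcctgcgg
F13b, chr1:139501457-139501756, plus strand: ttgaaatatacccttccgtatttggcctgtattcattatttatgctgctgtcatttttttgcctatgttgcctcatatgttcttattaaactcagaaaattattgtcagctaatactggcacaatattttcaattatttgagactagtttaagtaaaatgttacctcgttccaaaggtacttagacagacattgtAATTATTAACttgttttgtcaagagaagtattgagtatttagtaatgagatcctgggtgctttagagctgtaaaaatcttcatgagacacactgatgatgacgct

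**Figure D4:**
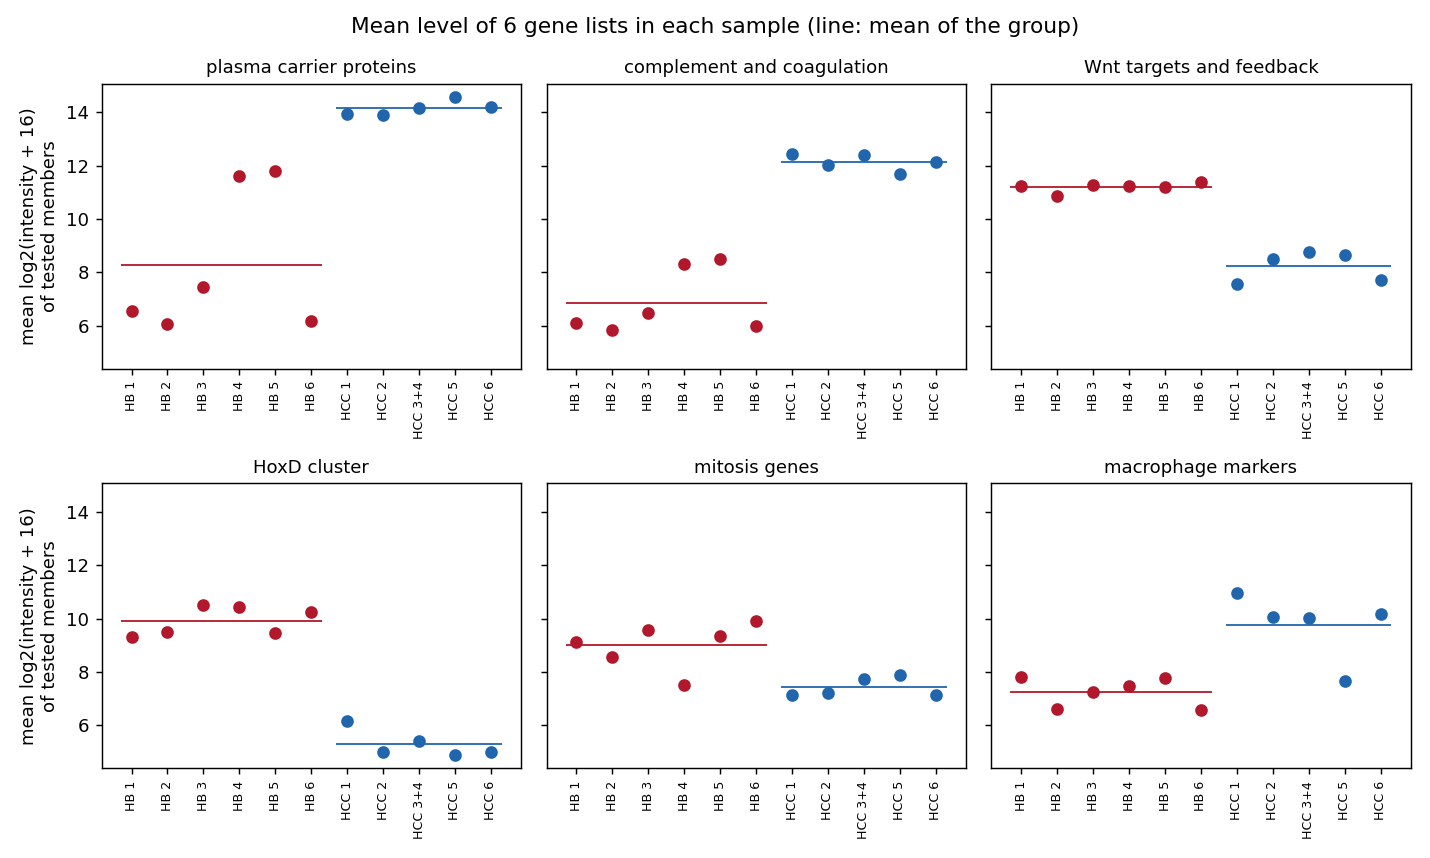
Mean log2(intensity + 16) of the tested members of 6 gene lists in each HB sample (red) and HCC sample (blue, replicates 3 and 4 averaged); lines are group means. HB replicates 4 and 5 stand between the other HB samples and HCC for plasma carriers (11.61 and 11.78) and for complement and coagulation, HB replicate 4 is the lowest HB sample for mitosis genes, and HCC replicate 5 is the lowest HCC sample for macrophage markers (7.67).

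Nitrogen and drug metabolism followed the same direction. Of 11 tested genes of the urea cycle and ammonia handling 10 were lower (median -3.22) and none higher. Nags, which makes the activator of Cps1, read 7.73, 15.3 and 48.6 in HB and 656.5, 863.5 and 1222 in HCC (-4.70 ± 0.30), and the mitochondrial carriers Slc25a13 (-4.74 ± 0.35) and Slc25a15 (-2.97 ± 0.22) were lower without overlap. Of 26 cytochrome P450 genes 23 were lower (median -5.21), and in 22 of the 26 the HB median was below 66.3. Cyp3a13 stood at -6.27 ± 0.46 and Cyp4v3 at -5.63 ± 0.44. P450 subfamilies hold close copies that probe sets may not separate. All 18 bile acid genes were lower (median -4.87), with Akr1d1, a reductase of bile acid synthesis, at 0.26, 20.6 and 75.5 in HB and 2076, 3300 and 6936 in HCC (-6.58 ± 0.39) and Slc10a1, the bile acid uptake transporter, at -4.66 ± 0.32.

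Genes of both ends of the liver lobule were lower. Of 11 tested periportal genes 10 were lower (median -3.79), among them Pck1 and G6pc, enzymes of glucose output, at -6.43 ± 0.50 and -6.88 ± 0.70, and Arg1, arginase (-5.97 ± 0.58). Of 14 pericentral genes 10 were lower and 3 higher (median -4.65). Lower were Rgn (-5.99 ± 0.63), Gulo, the last enzyme of vitamin C synthesis (-5.81 ± 0.70), and Cyp2c50 (-5.33 ± 0.42). The 3 higher pericentral genes, Axin2, Lgr5 and Tbx3, are Wnt targets or regulators, and 2 of them are also in the Wnt list.

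Enzymes of liver glucose metabolism were mostly lower, and those of fetal and tumour glycolysis were mixed. Of 11 tested enzymes of liver glycolysis and gluconeogenesis 10 were lower (median -3.99), with Fbp1, which catalyses a step of glucose synthesis, at 47.4, 77 and 494.2 in HB and 12910, 17880 and 29290 in HCC (-7.05 ± 0.40). The single higher gene, Pfkl (1.15 ± 0.48, adjusted p = 0.0489), lost its call under both other scalings and without HB replicate 1, 3, 4 or 5 or HCC replicate 1, 5 or 6. Of 15 fetal and tumour glycolysis enzymes 7 were higher and 3 lower, 5 and 4 after median centring, 7 and 1 after quantile normalization, and 5 and 5 without HB replicates 4 and 5. Pkm, the pyruvate kinase of most non-liver cells, read 9729, 11560 and 18200 in HB and 1158, 1991 and 5781 in HCC (2.47 ± 0.39), and Hk1, a hexokinase, stood at 2.40 ± 0.36, with HCC replicate 5 at 57.8 and the other HCC arrays at 263.1 or more.

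Lipid genes were lower. All 15 tested genes of fatty acid oxidation were lower (median -2.05), with Acaa2, a thiolase, at 308.4, 786.6 and 1563 in HB and 6387, 13110 and 16690 in HCC (-3.94 ± 0.29), and Cd36, a fatty acid transporter, at -5.14 ± 0.39. Of 15 genes of cholesterol and fatty acid synthesis 12 were lower (median -2.22), led by Insig1 (-3.09 ± 0.27), Dhcr7 (-3.29 ± 0.40) and Scd1 (-2.91 ± 0.40). HCC replicate 1 had a mean level of 10.00 over that list, while the remaining HCC samples had 12.32 to 12.83 and HB 9.80 to 10.59. Ribosomal protein genes had 3 of 29 higher and 3 lower and a median of -0.17, and their direction followed the scaling, with 19 higher after quantile normalization and 18 lower after median centring. Of single replicates, leaving out HB replicate 4, HCC replicate 2 or HCC replicate 3 gave 8, 9 and 8 lower, and leaving out HCC replicate 1 or 5 gave 1. Without HB replicates 4 and 5 there were 6.

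Keratins of the liver epithelium went both ways. Krt8 read 27.6, 264.7 and 6485 in HB and 8944, 13670 and 18820 in HCC (-5.44 ± 0.73), and its partner Krt18 stood at -4.60 ± 0.69, with HB replicate 4 (8320) above HCC replicate 1 (7580). Krt23 read 3908, 6579 and 10040 in HB and 37.9, 413 and 491.8 in HCC (4.78 ± 0.52, adjusted p = 2.85e-08). Of the biliary markers, Krt7 was higher (2.55 ± 0.56), Sox9 as well (2.13 ± 0.69), and Krt19 did not pass (0.59 ± 0.53, adjusted p = 0.362). The list of keratins and biliary progenitor markers held 4 higher and 3 lower genes of 9 tested, beside 28.9% and 21.6% of all tested genes.

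Markers of other liver cells were mostly lower in HB. Among endothelial markers 15 of 19 were lower and none higher (median -1.79), and those of sinusoidal cells led: Clec4g read 2.68, 17.6 and 52.3 in HB and 398.8, 2286 and 3953 in HCC (-5.63 ± 0.43), and Stab2, a scavenger receptor, stood at -4.34 ± 0.31. Cdh5, a marker of all endothelium, read 168, 1636 and 2504 in HB and 794.7, 1710 and 2224 in HCC and did not pass (-0.30 ± 0.49, adjusted p = 0.629). Macrophage markers were lower in 12 of 17 and higher in none (median -2.34), and in 17 of 17 under each of the other scalings. Cd5l, a Kupffer cell protein, stood at -5.62 ± 0.62, Csf1r, the receptor for the macrophage growth factor, at -3.22 ± 0.38, and Mpeg1 at -3.40 ± 0.35. The mean level of these markers was 6.56 to 7.82 in HB, 7.67 in HCC replicate 5 and 10.03 to 10.97 in the other HCC samples, and 15 were lower without that replicate.

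Of 19 stellate cell and fibroblast markers 4 were higher in HB and 6 lower, or 8 lower without HB replicates 4 and 5. Over all tested genes 28.9% were higher and 21.6% lower. Fbln1, an extracellular matrix protein, read 6028, 9339 and 19970 in HB and 66.3, 410.1 and 779.1 in HCC (4.91 ± 0.56), while Des, desmin (-1.83 ± 0.36), and Lrat, the enzyme of vitamin A storage in stellate cells (-2.35 ± 0.47), were lower. Col1a1, the main fibrillar collagen, did not pass (0.26 ± 0.71, adjusted p = 0.784). Of 13 genes of antigen presentation 10 were lower (median -1.68) and none higher. H2-K1, a class I chain, read 1826, 2312 and 4392 in HB and 10160, 11340 and 16950 in HCC (-2.22 ± 0.19, adjusted p = 6.84e-10), and B2m, its light chain, stood at -1.68 ± 0.22. H2-D1 was lower as well (-2.27 ± 0.36), although its 8 probe sets ranged from -3.10 to 0.70.

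Blood cell markers gave small numbers, to be read against 28.9% of all tested genes higher and 21.6% lower. Of 9 lymphocyte markers 3 were lower, Ighm (-3.42 ± 0.72), Cd3e (-2.38 ± 0.45) and Ptprc (-2.42 ± 0.49), and Cd4 was higher (2.94 ± 0.78), at 20.2, 375.9 and 1242 in HB and 12.2, 19 and 33.2 in HCC. The 2 probe sets of Cd4 stood at 0.58 and 2.94, those of Ptprc at -2.42 and -1.09, and the 8 of Ighm ranged from -3.42 to -0.53. Of 6 granulocyte markers 2 were lower, S100a8 and S100a9. HCC replicate 1 held their highest values (5978 and 4364), and without it S100a8 stood at -1.74 (adjusted p = 0.0629) and S100a9 at -1.59 (adjusted p = 0.147). Leaving out HB replicate 2, 4 or 6 or HCC replicate 2 or 6, or HB replicates 4 and 5 together, left 1 of the 2. Of 3 erythroid markers 2 were lower, Alas2 and Klf1, and 1 was lower without HCC replicate 1, where Klf1 read 2336, or without HB replicate 2 or 3. The 4 tested sex-chromosome genes had adjusted p values of 0.354 or more, though Kdm5d (1.02 ± 0.94) passed in the fit of HB and HCC alone (adjusted p = 0.00895). Eif2s3y, on the Y chromosome, read 30.4 in HCC replicate 5 and 1316 or more in the other HCC arrays. How far the makeup of cells or the sex of the animals entered the differences above was not tested.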

How the data were processed

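Per the submitters' processing notes, the authors made the deposited values with MAS5 (version not given in the sources used here): intensities on a linear scale, 1 per probe set and array, not background-corrected or normalized further here. Each array's trimmed mean (2%) was checked to be 500, and no probe-level values were used. The number of arrays, and for dim probe sets the background, limit the precision.

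Of 45101 probe sets, 34945 had 1 gene in the platform annotation, 932 several, 9160 none, and 64 were controls; gene IDs of 34741 matched RefSeq. Analysis used log2(intensity + 16). Probe sets whose 6th highest value did not exceed the 40th percentile (66.3) were dropped, and each gene was represented by its brightest remaining probe set, leaving 14086 genes. HCC replicates 3 and 4 were averaged on the log2 scale. limma 3.58.1 in R 4.3.3 estimated a mean for each of the 4 groups from 23 samples (moderated variances with an intensity trend, two-sided), with Benjamini-Hochberg adjustment over all genes, and was tested on simulated data. Array measures had two-sided exact permutation tests. Figures used Python 3.11.15 and matplotlib 3.10.9.

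The comparison, the gene lists and the markers were chosen with earlier results of these data known, so counts over lists and the results of the markers are descriptions. Genes named were the 10 largest differences in each direction among called genes without overlap, up to 3 members of each list by adjusted p, and fixed markers; Axin2, Lef1, Apcdd1, Notum, Sp5, Dkk1, Cdh1, Erbb2, Egfr, Igf1, Prrx1, Hoxd12, Prox1 and the other higher hepatocyte factors, Tbx3, Pfkl, Cd4 and F13b were named after their values were seen. Promoter windows came from RefSeq (GRCm38.p6). Alternatives changed the pseudocount, scaling, filter, probe set rule, samples, variance model and replicate block.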

Additional observations from a re-analysis of the deposited data

Results flagged for a closer look

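Among 276 sets of a named gene in HB or HCC, 16 held a sample set far apart from the others of its group; chance flags about 1 in 20 such groups. HCC replicate 1 was the sample in 7 of the 16. It was highest for Hoxd9 at 68.4 (next 6.33), Egfl6 at 35.7 (next 5.63), Slc38a4 at 12280 (next 5194), Klf1, an erythroid factor, at 2336 (next 198.5), and H2-K1 at 16950 (next 11370). It was lowest for Ctnnb1 at 5528 (next 8047) and Krt18 at 7580 (next 13560). HCC replicate 5 was lowest for Hoxa3 at 51.6 (next 443.3), Hk1 at 57.8 (next 263.1) and the Y-linked Eif2s3y at 30.4 (next 1316). HCC replicate 6 was highest for Cd3e, a T cell marker, at 290.8 (next 154.9).

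In HB, replicate 4 was highest for Cps1 at 1234 (next 24.2), Tff3 at 292.5 (next 17.1) and Glul at 25340 (next 12660). Replicate 5 was highest for C8g at 470.7 (next 142.1), and replicate 3 for Alas2, an enzyme of haem synthesis in red cells, at 1053 (next 380.0).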

How the results depend on the processing

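Of 138 named genes 130 were called, and 113 of these kept the call in all 27 alternatives. The remaining 17 lost it in at least 1, among them Lgr5, Glul, Mki67, Myc and Ctnnb1. Apart from the fixed markers, most named genes were chosen for a large difference or a low adjusted p. Their kept calls therefore do not speak for all called genes. The total of called genes stayed between 6115 (a filter at the 60th percentile, 10855 genes tested) and 7591 (24 separate arrays). The genes called were not all the same. Of the 7126 calls, 5845 kept call and direction after quantile normalization, 5454 after median centring and 6658 with HB and HCC fitted alone. With the probe set of the largest interquartile range 6358 kept both, and 65 genes were called in the opposite direction. Median centring gave 2405 genes higher and 4596 lower in HB in place of 4077 and 3049. Leaving out single replicates gave 6639 to 7151 called genes, 3669 to 4116 higher and 2860 to 3056 lower. The Gapdh 3' to 5' difference then ran from -0.54 to -0.224 (adjusted p = 0.0214 without HCC replicate 2, and up to 0.362) and the Actb difference from -0.356 to -0.163 (exact permutation test, adjusted p = 0.0286 without HCC replicate 5, passing also without HCC replicate 2, and up to 0.286). Among named genes, directions reversed for Hoxb4 on the probe set with the largest interquartile range (0.45, adjusted p = 0.499). They also reversed for Dlk1, which was not called, under quantile normalization (-0.034), median centring (-0.098) and without HCC replicate 5 (-0.046). Dlk1 reached 0.533 without HCC replicate 1. The cause was not tested. Same-numbered HB and HCC arrays did not deviate together (r from -0.099 to 0.034, and -0.123 to 0.128 for other numbers). As 0 of 6 HB replicates correlated best with their own number, the numbers were not taken as pairs. Whether arrays pair by animal in another order was not tested. With the replicate block 6860 genes were called, against 7429 in the same fit without it. In 53 of the 130 called named genes 1 group median lay below 66.3, where an intensity is near background and its fold is loosely set.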
